A study of Homo sapiens with 4 samples.

Results

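The 45 genes described here encode the enzymes and transporters of glycolysis, the hypoxia-inducible factors (HIFs) with the proteins that control them, and other transcripts known to be induced in low oxygen. They were chosen by name, as members of this pathway, and a gene was taken as measured where any probe bearing its symbol was detected, with a detection p under 0.01, on 1 or more of the arrays. By that rule 40 of the 45 genes were measured, through 63 of the 18200 detected probes, among 10921 measured genes in all. The cells were A549, an established human lung adenocarcinoma line. They were transfected with 50 nM of a non-targeting siRNA (control, 1 array) or of 1 of 3 siRNAs against the long noncoding RNA EPEL, which has been linked to E2F factors and proliferation (siEPEL, 3 arrays). The siEPEL arrays are named siRNA 1, siRNA 2 and siRNA 3 after the siRNA each received, so each siRNA was measured once. All were transfected by lipofection in complete RPMI culture, with fresh medium 4 h later, and knockdown was assayed by the submitters at 48 h; the time of the array RNA is not given. No oxygen level or hypoxia treatment is stated for any sample. The comparison asks which of these transcripts differ when EPEL is targeted.

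Glycolysis splits glucose into pyruvate in a chain of steps, first spending and then regaining ATP, and most steps have isoenzymes encoded by separate genes. The HIF transcription factors pair an oxygen-labile alpha subunit with ARNT. When oxygen is present, prolyl hydroxylases of the EGLN family mark the alpha subunit for VHL, the recognition subunit of a ubiquitin ligase. When oxygen is scarce the factor persists and induces glucose transporters, glycolytic enzymes, lactate dehydrogenase A, pyruvate dehydrogenase kinases and genes of angiogenesis and mitophagy. The alpha subunits are thus controlled largely at the level of protein, which these arrays do not measure.

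The arrays were alike in overall signal: 35.0% to 36.2% of the 47228 probes were detected, and the mean raw signal lay between 381 and 404. Of the 10 markers listed for epithelial cells and for A549, 9 were detected, and AKR1C1 was not. Of 9 markers of leukocytes, endothelium, fibroblasts and red cells that had a named probe, 3 were detected (CD14, COL1A1 and COL3A1). EPEL itself was not analysed here, so the depth of the knockdown with each siRNA is unknown. Separate cultures are not stated for the samples, so p-values measure only the spread between these samples. That spread comes from the 3 siEPEL arrays alone, so it also holds differences between the 3 siRNAs and nothing from the single control array. Levels below are log2 normalized signals, and where 4 follow one another they are those of the control, siRNA 1, siRNA 2 and siRNA 3, in that order. A probe's brightness depends on its sequence, so a level is compared between arrays and not between genes.

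Of the 45 genes, 5 have no value. No probe bears the names CA9, SLC16A1 or SLC16A3 in the annotation used here. PDK1 was not well above background on any array, with raw signals of 57.6, 58.7, 54.7 and 52.8 for the control and siRNAs 1, 2 and 3. ANKRD37, a hypoxia-induced ankyrin repeat gene, stopped just short of the detection threshold, with raw signals of 77.6, 85.1, 83.2 and 81.3 and detection p-values between 0.0130 and 0.0299. Just inside it lay ARNT, with raw signals of 93.1, 88.0, 92.8 and 86.3. The chosen probes of all 40 measured genes were detected on all 4 arrays, against 89.5% of all measured genes. None of the 40 therefore owed its place to 1 group alone.

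No glycolysis or hypoxia gene was called different in siEPEL cells, and as a set the genes lay slightly to the low side of the control array. The furthest was ALDOC, an aldolase isoenzyme, which was 0.550-fold the control under siRNA 1, 0.661-fold under siRNA 2 and 0.695-fold under siRNA 3. Below the control with all 3 siRNAs lay 13 of the 40 genes (32.5%), against 20.3% of all 10921 genes. They were EPAS1, HK2, ALDOA, ALDOC, PFKFB3, PFKFB4, PGK1, LDHA, PDK3, VEGFA, BNIP3, BNIP3L and P4HA1. Above it with all 3 lay 5 genes (12.5%), against 20.5% of all genes (lower 20.5% and higher 20.1% of the 9775 genes detected on all 4 arrays), namely SLC2A3, TPI1, GAPDH, PGAM1 and LDHB. The other 22 had siRNAs on both sides. The median log2 fold change of the 40 genes was -0.06, beside -0.01 for all genes, and their medians with siRNAs 1, 2 and 3 were -0.10, -0.04 and -0.12.

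The test was limma's moderated test over all 18200 probes, where 0% of the 10921 genes were called higher and 0% lower at an adjusted p under 0.05. At an unadjusted p under 0.05, 1 of the 40 genes lay lower (ALDOC) and 0 lay higher, against 0.778% of all genes lower and 0.934% higher. With all 3 siRNAs at least 1.5-fold from the control there were 0 genes of the pathway, beside 0.0916% of all genes lower and 0.11% higher. Standard errors of these log2 fold changes had a median of 0.22, so most of the differences below are smaller than their own error. The 3 ratios of a gene share the lone control array, and in bulk RNA fewer cells with a transcript and less transcript per cell cannot be told apart. The same 13 genes were low throughout under each other scaling and background setting tried, but with the mean of each gene's probes 11 of them were, without HK2 and ALDOA, and P4HA2 joined them, while the 5 high genes were not: median scaling left 0 of them above the control throughout.

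**Figure D1:**
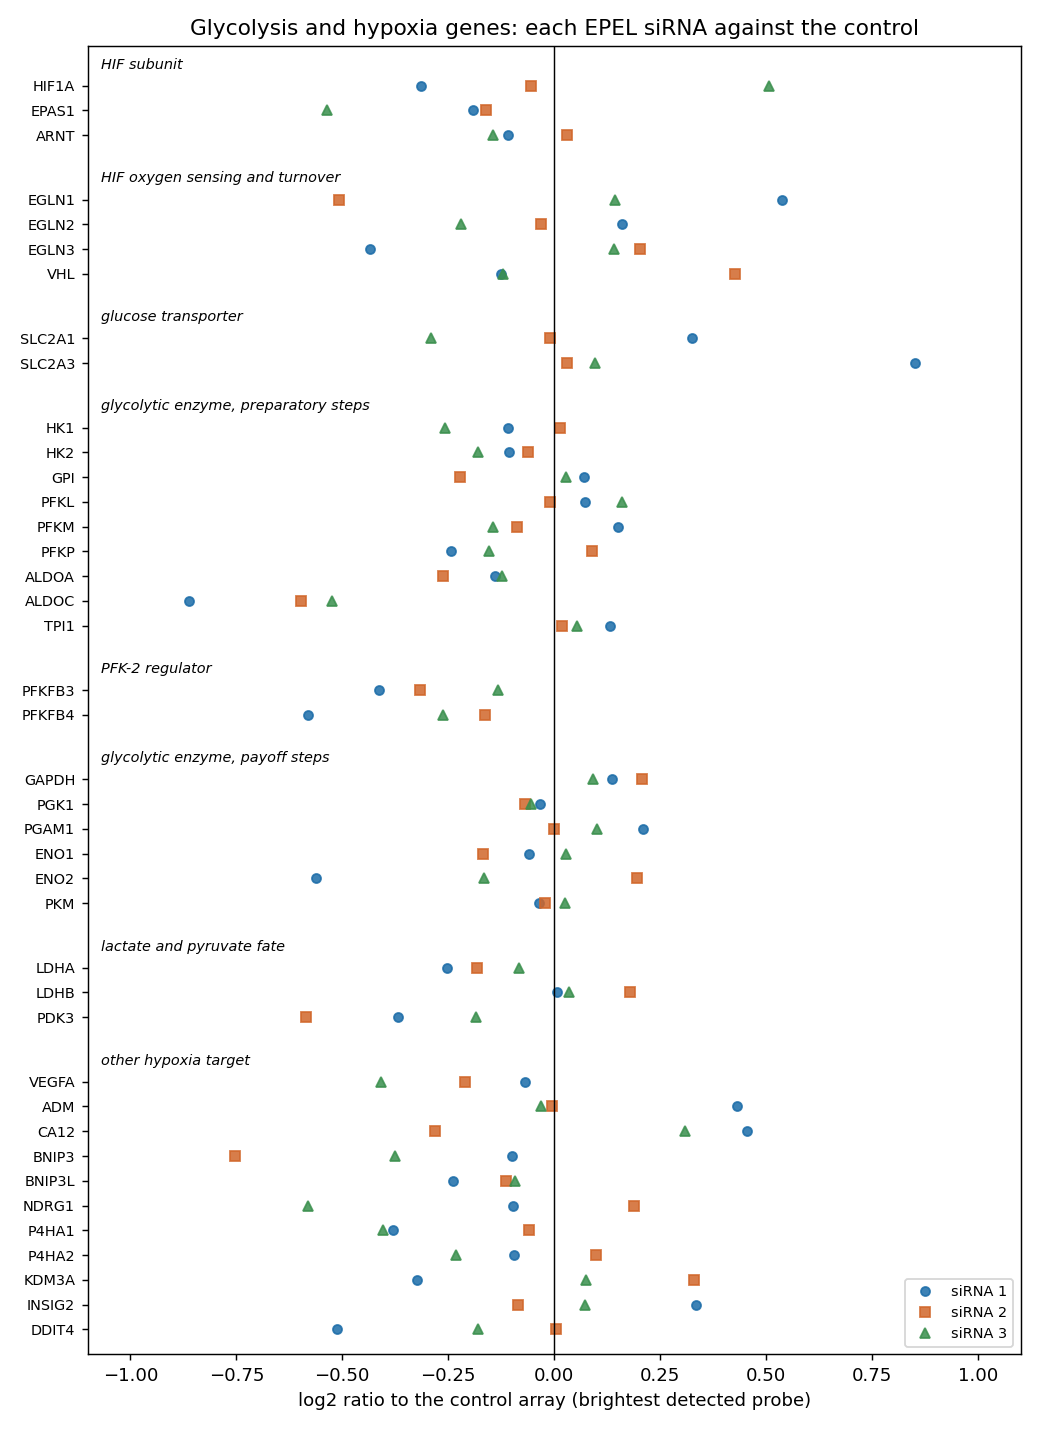
Log2 ratio of each EPEL siRNA to the control array (x axis) for the 40 measured glycolysis and hypoxia genes (y axis, by role), with 1 point per array and no error bar because each siRNA was measured once. The 3 points of ALDOC lie between -0.86 and -0.53, PFKFB3 and PFKFB4 also lie wholly to the left, and EGLN1 spans 1.05 between siRNAs.

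**Figure D2:**
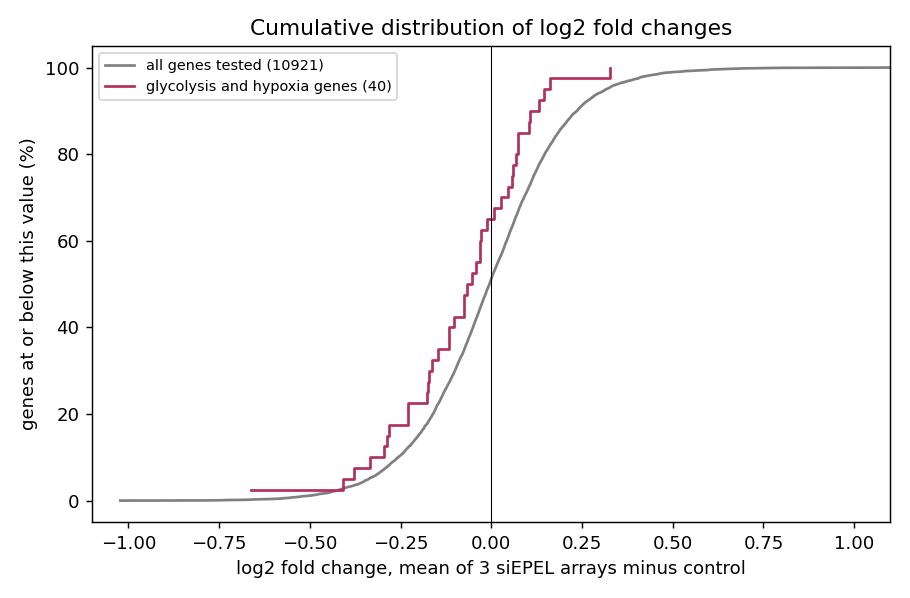
Share of genes (y axis, %) with a log2 fold change at or below the value on the x axis, for all 10921 genes tested (grey) and the 40 glycolysis and hypoxia genes (red). The red curve lies to the left over much of its length, with medians of -0.06 and -0.01, and it ends at ALDOC (-0.66) and SLC2A3 (0.33).

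HIF binds DNA at a short core, ACGTG or GCGTG, so the 250 bases before the transcription start of each gene were searched for these letters and for their reverse complements, CACGT and CACGC. Overlapping matches, such as those in CACGTG, were counted as 1. The RefSeq promoter table of GRCh38.p14 held 60 such windows for 35 of the 40 genes, some genes having several starts, and 36 of the windows (60.0%) held a match. The share was 43.2% of 35114 windows of all genes and 55.0% of 12958 windows of the measured genes. Among the 13 genes that lay low with all 3 siRNAs, 11 had a window, and all 16 of their windows (100%) held a match, against 20 of 44 windows (45.5%) of the remaining pathway genes. Counted by gene, a match stood in at least 1 window of all 11 low genes and of 17 of the 24 remaining genes (70.8%), beside 65.0% of all measured genes, since some of the remaining genes have many windows. CACGTG itself stood in 6 of these 16 windows, in 2 of the 44 and in 6.35% of all windows. Windows of 1 gene can overlap, so they are not independent. The 2 sets also differed in base composition, at 70.7% and 63.9% G and C, and the part of composition in the difference was not tested. Over all measured genes a match stood in 54.1% of the windows of those low with all 3 siRNAs and in 55.5% of those high with all 3. In the list of other pathway genes described further on, the shares were 62.5% of 16 windows and 60.0% of 15. A contrast between low and high genes was thus not seen there, and low genes were not compared with all remaining genes of that list. Its low set includes MXI1, which was detected on the control array only. With median scaling 18 of the 40 pathway genes lay low throughout, beside 22.1% of all genes. Of their 30 windows 21 (70.0%) held a match, against 15 of 30 (50.0%) of the remaining pathway genes. A match is a string of letters and does not show that HIF binds there.

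The windows of 6 genes are printed below from GRCh38.p14, with the matches in capitals: the 4 genes lowest on average, then PGK1, which differed least among the low genes, and GAPDH, the highest of the genes above the control throughout that have a window. ALDOC (chr17:28576896-28577145, minus strand) had 4 matches, BNIP3 (chr10:131981924-131982173, minus strand) had 5 and PDK3 (chrX:24465036-24465285, plus strand) had 2. PFKFB4 (chr3:48556804-48557053, minus strand) had 1, PGK1 (chrX:78103998-78104247, plus strand) had 3 and GAPDH (chr12:6535014-6535263, plus strand) had 1. The sequences run 5′ to 3′ on the strand of the gene and end at the base before its start.
ALDOC: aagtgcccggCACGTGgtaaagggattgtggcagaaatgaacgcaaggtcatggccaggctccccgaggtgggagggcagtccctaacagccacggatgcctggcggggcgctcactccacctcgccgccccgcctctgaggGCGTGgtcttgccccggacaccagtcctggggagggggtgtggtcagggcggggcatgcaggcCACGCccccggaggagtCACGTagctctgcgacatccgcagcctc
BNIP3: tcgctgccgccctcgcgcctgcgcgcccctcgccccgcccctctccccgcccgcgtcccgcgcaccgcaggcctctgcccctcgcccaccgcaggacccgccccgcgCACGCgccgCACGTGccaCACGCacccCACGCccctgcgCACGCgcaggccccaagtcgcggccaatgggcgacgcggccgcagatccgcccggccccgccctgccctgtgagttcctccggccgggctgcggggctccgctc
PDK3: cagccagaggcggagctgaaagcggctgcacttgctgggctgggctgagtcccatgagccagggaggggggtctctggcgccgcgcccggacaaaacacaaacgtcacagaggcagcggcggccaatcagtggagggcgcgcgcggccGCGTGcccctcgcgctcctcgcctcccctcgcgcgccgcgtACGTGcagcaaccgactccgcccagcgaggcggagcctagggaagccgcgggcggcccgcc
PFKFB4: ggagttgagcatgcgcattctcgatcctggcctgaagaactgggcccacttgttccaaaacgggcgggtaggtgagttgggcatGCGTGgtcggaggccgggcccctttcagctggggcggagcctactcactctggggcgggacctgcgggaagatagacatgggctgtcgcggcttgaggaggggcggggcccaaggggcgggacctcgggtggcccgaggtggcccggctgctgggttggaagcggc
PGK1: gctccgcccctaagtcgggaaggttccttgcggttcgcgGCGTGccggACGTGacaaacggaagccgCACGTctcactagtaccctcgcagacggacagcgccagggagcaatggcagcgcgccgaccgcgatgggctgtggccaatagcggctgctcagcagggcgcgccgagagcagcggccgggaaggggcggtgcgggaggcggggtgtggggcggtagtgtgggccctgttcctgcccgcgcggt
GAPDH: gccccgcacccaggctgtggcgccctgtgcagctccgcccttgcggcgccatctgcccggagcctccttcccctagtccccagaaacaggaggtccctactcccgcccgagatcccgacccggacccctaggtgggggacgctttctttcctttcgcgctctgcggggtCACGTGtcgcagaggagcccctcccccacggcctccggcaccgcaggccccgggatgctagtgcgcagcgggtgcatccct
In ALDOC the matches begin 240, 108, 45 and 28 bases before the start, and the first of them is CACGTG. The match in GAPDH, also CACGTG, begins 81 bases before the start, so the motif was present in a gene above the control as well. PGK1, whose brightest probe lay within 0.07 of the control on the log2 scale, carries matches 211, 202 and 183 bases before its start.

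The HIF subunits gave no common direction. HIF1A, the ubiquitous alpha subunit, had levels of 9.35 in control cells, against 9.04, 9.30 and 9.86 under siRNAs 1, 2 and 3. It was therefore highest with siRNA 3, at 1.42-fold the control, and the siEPEL values lay on both sides of the control. Its other 2 probes were also highest with siRNA 3, by smaller amounts, at log2 ratios of 0.16 and 0.13. EPAS1, which encodes the HIF-2 alpha subunit, went the other way with siRNA 3, at 9.76 in control cells, against 9.57, 9.60 and 9.23 under siRNAs 1, 2 and 3. All 3 siEPEL values of EPAS1 lay below the control, with a log2 fold change of -0.30 ± 0.23 (SE), which was -0.18 without siRNA 3. ARNT, the shared partner, was near the detection limit at 5.69, 5.58, 5.72 and 5.54.

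The genes of oxygen sensing differed more between siRNAs than from the control. EGLN1, the main HIF prolyl hydroxylase, stood at 8.02 in control cells, against 8.56, 7.52 and 8.17 under siRNAs 1, 2 and 3. Its range of 1.05 was the widest of the 40 genes, against a median range of 0.34 for the pathway and 0.32 for all genes. EGLN3, a hydroxylase gene that is itself induced by HIF, showed the opposite order of the 3 siRNAs, at 6.36, 5.93, 6.57 and 6.51. With siRNA 3 both EGLN1 and EGLN3 lay above the control, each at a log2 ratio of 0.14. EGLN2 stood at 11.75, 11.91, 11.72 and 11.53, and its second probe lay above the control with all 3 siRNAs, with a log2 fold change of 0.30 ± 0.21 (SE) against -0.03 ± 0.22 for the first. VHL was highest with siRNA 2 by all 3 of its probes, at log2 ratios of 0.43, 0.28 and 0.14, while its brightest probe read 10.03, 9.91, 10.46 and 9.91 over the 4 arrays. None of the 4 sensing genes lay on one side of the control with all 3 siRNAs.

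Both glucose transporters among the 40 genes were highest with siRNA 1. SLC2A3, which encodes the high-affinity transporter GLUT3, had levels of 11.96 in control cells, against 12.81, 11.99 and 12.05 under siRNAs 1, 2 and 3. With siRNA 1 it was 1.80-fold the control, the largest upward ratio of the 40 genes, and with the other two it lay at 1.02-fold and 1.07-fold. Its log2 fold change of 0.33 ± 0.32 (SE) was 0.06 without siRNA 1. SLC2A1, which encodes the basal transporter GLUT1, stood at 10.66, 10.98, 10.65 and 10.36. It lay above the control with siRNA 1 and below it with siRNA 3, by log2 ratios of 0.32 and -0.29, and its log2 fold change of 0.01 ± 0.26 (SE) was -0.013 with median scaling.

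Among the enzymes of the first, ATP-consuming steps, ALDOC stood apart from the rest. ALDOC, an aldolase best known from brain and a hypoxia target, had levels of 7.25 in control cells, against 6.39, 6.65 and 6.73 under siRNAs 1, 2 and 3. The groups did not overlap, and the log2 fold change was -0.66 ± 0.22 (SE), with an unadjusted limma p of 0.0153 and an adjusted p of 1.00. ALDOA, the aldolase of most tissues, read 12.23, 12.09, 11.96 and 12.10, a log2 fold change of -0.17 ± 0.20. Its second probe gave 0.05 ± 0.22 and lay on both sides of the control. The ratio of ALDOC was lower than that of ALDOA by 0.49 ± 0.21 on the log2 scale (SD, n = 3 siRNAs), and lower with each siRNA.

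The remaining preparatory enzymes lay closer to the control by their brightest probes. HK1, the constitutive hexokinase, stood at 11.49, 11.38, 11.50 and 11.23 on the control array and with siRNAs 1, 2 and 3. HK2, the inducible hexokinase, stood at 6.88, 6.78, 6.82 and 6.70, so its 3 siEPEL values lay just below the control. Its dimmer second probe lay on both sides, with log2 ratios of -0.72, 0.27 and -0.32, and was not detected with siRNA 1. GPI, which converts glucose-6-phosphate to fructose-6-phosphate, read 12.003, 12.07, 11.78 and 12.03. The 3 phosphofructokinase genes encode the liver (PFKL), muscle (PFKM) and platelet (PFKP) subunits of the committing enzyme. Their levels were 8.08, 8.15, 8.07 and 8.24 for PFKL, 9.84, 9.99, 9.75 and 9.70 for PFKM, and 12.67, 12.43, 12.76 and 12.52 for PFKP. In none of the 3 were the siEPEL values all on one side, and the ratio of PFKP minus that of PFKL differed in sign between siRNAs, at log2 differences of -0.31, 0.10 and -0.31. TPI1, the triose phosphate isomerase, read 13.01, 13.14, 13.02 and 13.06, a log2 fold change of 0.07 ± 0.20 (SE) that was -0.019 with median scaling and 0.036 without siRNA 1. The second probe of TPI1 lay on both sides of the control, at log2 ratios of -0.02, 0.09 and -0.23.

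**Figure D3:**
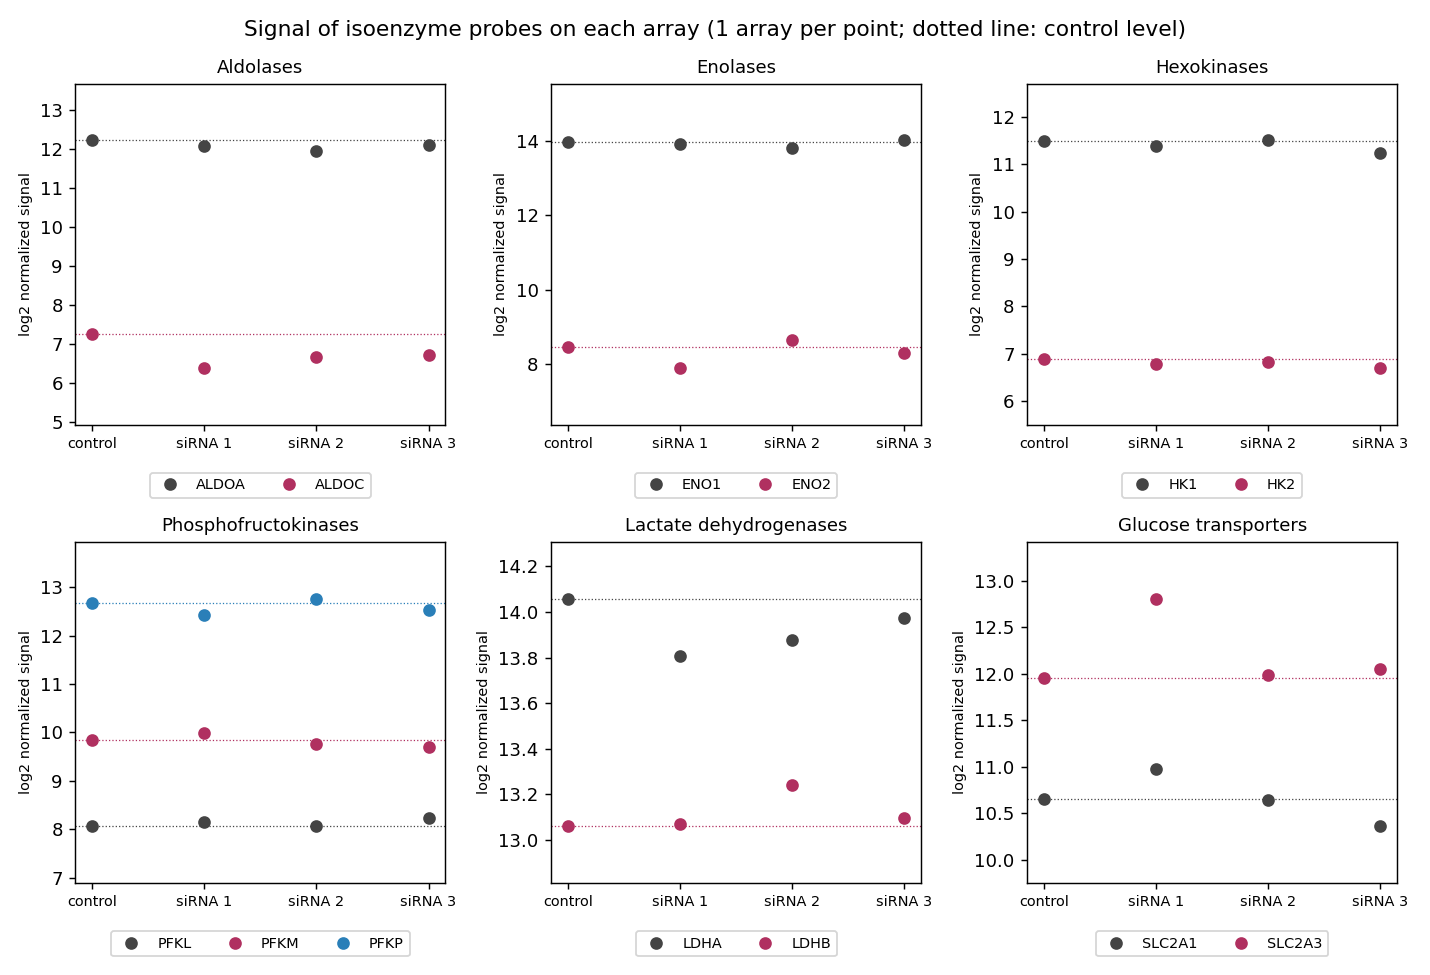
Log2 normalized signal (y axis) on the control array and with siRNAs 1, 2 and 3 (x axis) for 6 groups of isoenzymes or transporters, with 1 array per point and a dotted line at the control level. ALDOC lies below its line on all 3 siEPEL arrays (6.39 to 6.73 against 7.25) and SLC2A3 lies high with siRNA 1 (12.81). The heights of different probes are not comparable.

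Of the bifunctional enzymes that set fructose-2,6-bisphosphate, the activator of phosphofructokinase, PFKFB3 and PFKFB4 lay below the control with all 3 siRNAs. PFKFB2, from the list of other pathway genes described further on, lay above it with all 3, at log2 ratios of 0.34, 0.13 and 0.19. PFKFB3 had levels of 13.00 in control cells, against 12.59, 12.68 and 12.87 under siRNAs 1, 2 and 3. Its log2 fold change was -0.29 ± 0.21 (SE), and its dimmer second probe gave -0.16 ± 0.23, with siRNA 3 just above the control. PFKFB4 had levels of 8.41, 7.83, 8.24 and 8.15, a log2 fold change of -0.34 ± 0.23 that was -0.21 without siRNA 1. Both were lowest with siRNA 1, at 0.750-fold and 0.669-fold the control, and neither passed the test.

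Of the 6 genes of the later, ATP-yielding steps, 1 lay below the control throughout, 2 above it and 3 on both sides. GAPDH, the dehydrogenase often used as a reference transcript, had levels of 13.63, 13.77, 13.84 and 13.73 on the control array and with siRNAs 1, 2 and 3. All 3 of its probes lay above the control with all 3 siRNAs, at log2 fold changes of 0.14 ± 0.20, 0.20 ± 0.20 and 0.42 ± 0.20 (SE) from the brightest to the dimmest. With median scaling the brightest probe was below the control with siRNA 3, at a log2 ratio of -0.05. PGK1, the first ATP-yielding kinase and a standard HIF target, had the narrowest range between siRNAs of the 40 genes by its brightest probe, 0.04, with levels of 12.24, 12.21, 12.17 and 12.19. The second probe of PGK1 lay on both sides of the control, at log2 ratios of -0.15, 0.02 and -0.17. PKM, the pyruvate kinase, was almost as steady at 11.01, 10.97, 10.98 and 11.03. PGAM1, a phosphoglycerate mutase, read 11.59, 11.80, 11.59 and 11.69, so with siRNA 2 it lay level with the control, and its log2 fold change of 0.10 ± 0.21 (SE) was 0.051 without siRNA 1. Its second probe lay on the other side, below the control with all 3 siRNAs, at log2 ratios of -0.02, -0.48 (0.716-fold) and -0.05.

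The 2 enolase genes differed in spread. ENO1, the ubiquitous enolase, stood at 13.99, 13.93, 13.82 and 14.02 on the control array and with siRNAs 1, 2 and 3. ENO2, the neuronal isoenzyme and a hypoxia target, stood at 8.46, 7.90, 8.66 and 8.30. It was lowest with siRNA 1, at 0.678-fold the control, and its log2 fold change of -0.18 ± 0.29 (SE) was 0.016 without siRNA 1.

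Of the genes that direct pyruvate and lactate, LDHA and PDK3 lay low and LDHB did not. LDHA, the lactate dehydrogenase subunit that favours lactate production and is induced by HIF, had levels of 14.06 in control cells, against 13.80, 13.88 and 13.97 under siRNAs 1, 2 and 3. Its 3 probes all lay below the control with all 3 siRNAs, at log2 fold changes of -0.17 ± 0.20, -0.16 ± 0.20 and -0.54 ± 0.22 (SE). The largest difference came from the dimmest probe, with an unadjusted limma p of 0.0369 and an adjusted p of 1.00. This probe read 6.38, 5.73, 5.74 and 6.04, so it was near the detection limit with siRNAs 1 and 2. LDHB, the subunit that favours pyruvate, read 13.06, 13.07, 13.24 and 13.10, a log2 fold change of 0.07 ± 0.20 that was -0.0041 with median scaling and 0.021 without siRNA 2. The ratio of LDHB was above that of LDHA with each siRNA, by 0.25 ± 0.12 on the log2 scale (SD, n = 3 siRNAs). PDK3, a kinase that switches off pyruvate dehydrogenase, read 9.54, 9.17, 8.95 and 9.35, a log2 fold change of -0.38 ± 0.23 (SE). The second probe of PDK3 read 7.69, 7.67, 7.63 and 7.66, a log2 fold change of -0.04 ± 0.20, so its 2 probes differed in size though not in side.

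**Figure D4:**
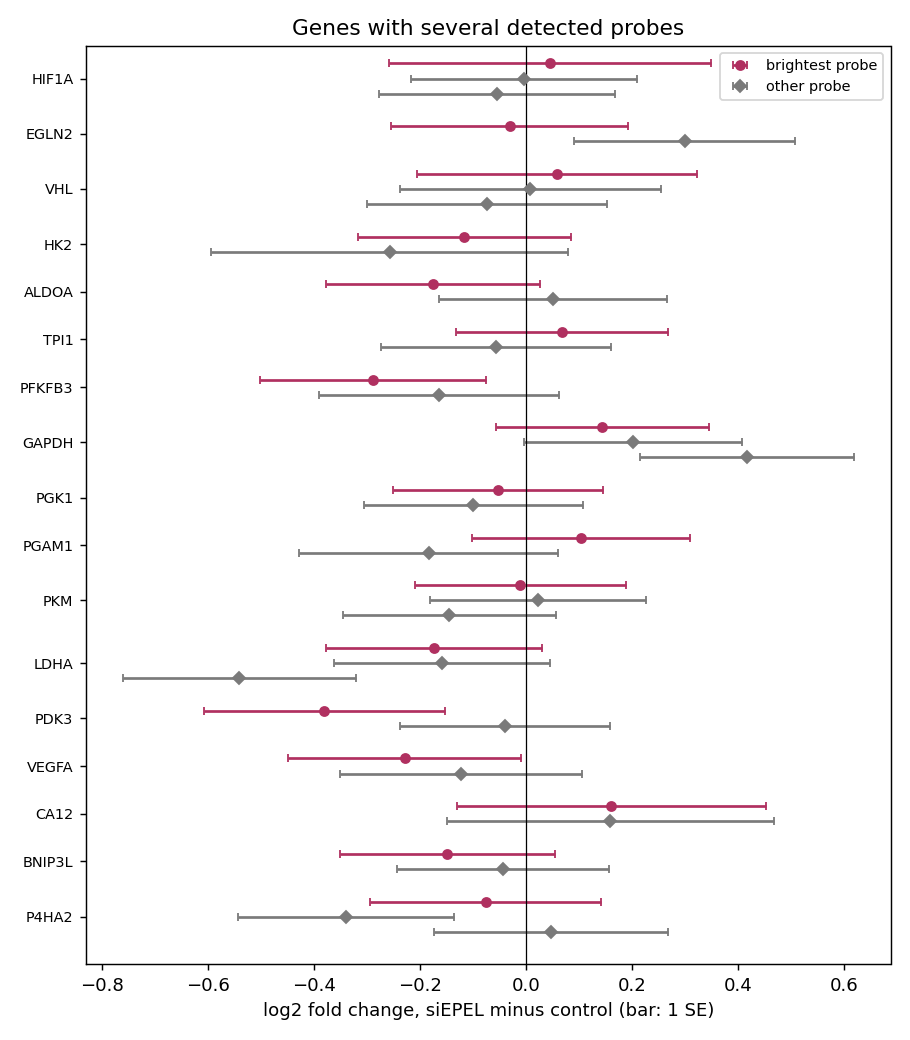
Log2 fold change of siEPEL minus control (x axis, bars of 1 SE from limma) for each detected probe of the 17 genes with several (y axis), brightest probe in red. The 3 GAPDH probes lie to the right (0.14 to 0.42) and the 3 LDHA probes to the left (-0.54 to -0.16), while in 8 genes, including ALDOA and PGAM1, the probes lie on both sides of 0.

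The other hypoxia targets held 4 genes below the control with all 3 siRNAs, 0 above it and 7 on both sides, with a median log2 fold change of -0.15. BNIP3, a mitochondrial protein that promotes mitophagy, had levels of 11.13 in control cells, against 11.03, 10.38 and 10.75 under siRNAs 1, 2 and 3. It was lowest with siRNA 2, at 0.593-fold, and its log2 fold change of -0.41 ± 0.27 (SE) was -0.24 without siRNA 2. Its relative BNIP3L stood at 10.12, 9.88, 10.01 and 10.03, lowest with siRNA 1, and its second probe lay on both sides of the control. VEGFA, the angiogenic growth factor, read 7.04, 6.97, 6.83 and 6.63, a log2 fold change of -0.23 ± 0.22 that was -0.14 without siRNA 3. With siRNA 3 the brightest VEGFA probe was at its lowest, at 0.754-fold. The second VEGFA probe read 0.781-fold with siRNA 3, where it was not detected.

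The collagen prolyl hydroxylase subunits P4HA1 and P4HA2 lay low or near the control. P4HA1 had levels of 9.04 in control cells, against 8.66, 8.98 and 8.63 under siRNAs 1, 2 and 3, which makes a log2 fold change of -0.28 ± 0.22 (SE). The brightest probe of P4HA2 read 9.54, 9.45, 9.64 and 9.31, on both sides of the control. Its second probe lay below with all 3 siRNAs, at -0.34 ± 0.20, and its other probe, detected on 1 array, lay on both sides.

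The remaining targets lay on both sides of the control. ADM, the vasodilator peptide adrenomedullin, had levels of 11.83, 12.26, 11.82 and 11.80 on the control array and with siRNAs 1, 2 and 3, so it stood out with siRNA 1 alone, at 1.35-fold. CA12, a membrane carbonic anhydrase, read 12.29, 12.75, 12.01 and 12.60. Its second probe followed the same order, with log2 ratios of 0.45, -0.33 and 0.36 beside 0.46, -0.28 and 0.31. NDRG1, a stress-responsive gene, read 10.26, 10.16, 10.45 and 9.68 and was lowest with siRNA 3, at 0.668-fold. DDIT4, an inhibitor of mTORC1 signalling, read 11.85, 11.34, 11.85 and 11.67 and was lowest with siRNA 1, at 0.701-fold. KDM3A, a histone H3 lysine 9 demethylase, read 7.78, 7.45, 8.11 and 7.85, below the control with siRNA 1 and above it with siRNA 2. INSIG2, which restrains sterol synthesis, showed the reverse, at 8.41, 8.75, 8.33 and 8.49.

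A further 72 genes of glycolysis, pyruvate entry and the hypoxia response were listed beside these, and 52 of them were measured. None passed the limma test, 10 lay below the control with all 3 siRNAs (19.2%) and 13 above it (25.0%), near the shares of all genes. The 10 include MXI1, which was measured through the control array alone. The median log2 fold change of the 52 genes was 0.005, so the low side described above was not seen in this list as a whole. Of its 24 hypoxia targets 6 lay below throughout (25.0%, with MXI1) and 4 above (16.7%), with a median of -0.04. Of 10 glycolysis genes 1 lay below and 4 above, and of 10 HIF regulators 0 and 3. Of 8 pyruvate entry genes 3 lay below and 2 above. The difference between the lists was not tested. The genes named below the control, by the smallest of 3 ratios, were ANGPTL4, a lipase inhibitor, and STC2, a secreted glycoprotein. MXI1, an antagonist of MYC, is named beside them. MXI1 was detected on the control array only and passed the filter through it, so its ratios are bounds and it has no rank: the control level was at least 1.15-fold the mean over the siEPEL arrays of each array's detection floor. ANGPTL4 had levels of 10.09, 9.88, 9.73 and 9.72 over the 4 arrays, control first, which gave a log2 fold change of -0.32 ± 0.20 (SE), and STC2 stood at -0.41 ± 0.24. Those named above it were KDM5B, a histone H3 lysine 4 demethylase, WSB1, a ubiquitin ligase subunit, and HKDC1, a hexokinase-like gene. KDM5B read 9.49, 9.77, 10.18 and 9.93, a log2 fold change of 0.47 ± 0.23, and WSB1 and HKDC1 each stood at 0.24 ± 0.20.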

How the data were processed

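RNA of 4 samples of A549 cells was hybridised to Illumina HumanHT-12 BeadChips. The file that the authors deposited holds raw intensities, the mean signal of the beads of each probe, and BeadStudio is the software named, per the submitters' processing notes. Per the file headers each intensity has a detection p-value, here in steps of 1 in 770. The authors' processed intensities, also deposited, are linear, go below 0 and share 1 minimum and 1 maximum over the arrays; the sources used here give no method for them. They served as an alternative. Raw intensities went through neqc in limma 3.58.1 (R 4.3.3): normexp with background estimated by way of the detection p-values, an offset of 16, quantile normalization and log2. The offset understates folds of dim probes. The 18200 probes detected (p under 0.01) on any array entered lmFit and eBayes, siEPEL (3 arrays) against control (1 array), 2-sided, with Benjamini-Hochberg adjustment over all of them and calls below 0.05. There were 2 residual degrees of freedom, and 6.83 from the prior. The fit gives the single control the spread of the siEPEL arrays. The number of arrays limits the precision. Symbols came from the platform annotation, checked by gene identifier against RefSeq (0 changed): 30113 of 47228 probes had 1 gene, 8 several and 17107 none. Each gene was taken by its brightest tested probe. The test was checked on simulated data. All 45 genes are named, and from the list of other pathway genes the 3 furthest on each side by the smallest of their 3 ratios. MXI1, named among these, has ratios that are bounds. PFKFB2 was added from that list after its values were seen. Genes and lists were chosen with earlier results of these data known. The printed promoters and the isoenzyme pairs given with values were picked with the values in view. Most pairs that were computed, such as ENO2 with ENO1 and HK2 with HK1, differed in sign between siRNAs. The SD of a pair over siRNAs leaves out the error of the shared control array.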

Additional observations from a re-analysis of the deposited data

How the results depend on the processing

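The alternatives were the authors' processed values, median scaling, cyclic loess, raw signal without background correction, an offset of 50, detection on all 4 arrays, no detection filter, a prior with an intensity trend (plain or robust), the mean over the probes of a gene, an adjusted p under 0.10, and leaving out each siRNA. Under all of them limma called 0 pathway genes. The files name no chips, so a chip block was not run. No paired analysis was possible because the control group holds 1 array. Genes above the control with all siRNAs numbered 5, and 0 with median scaling, 3 with cyclic loess and 3 with the mean of probes. Of all genes, 20.5%, 19.1%, 19.8% and 20.4% lay above under these settings. Leaving out 1 siRNA gave 5 to 10 such pathway genes, against 30.0% to 30.5% of all genes. It gave 16 to 21 pathway genes below (13 with all 3), against 29.9% to 30.5% of all genes. Medians were -0.13 to -0.049. At least 1.5-fold lower throughout were 0 to 1 pathway genes (ALDOC, without siRNA 3), beside 23 to 49 of all 10921 genes. With 2 siRNAs left, more genes lie on one side by construction. The cause of the other changes was not tested. Of 560 log2 fold changes of single genes under an alternative, 23, of 18 genes, turned direction. Those turned by leaving out 1 siRNA ranged, over the siRNA left out, from -0.18 to 0.23 (HIF1A), -0.18 to 0.34 (EGLN1), -0.13 to 0.065 (EGLN2), -0.15 to 0.17 (EGLN3), -0.12 to 0.15 (VHL), -0.15 to 0.16 (SLC2A1), -0.098 to 0.049 (GPI), -0.12 to 0.031 (PFKM), -0.36 to 0.016 (ENO2), -0.029 to 0.0023 (PKM), -0.018 to 0.21 (ADM), -0.34 to 0.045 (NDRG1), -0.16 to 0.0023 (P4HA2), -0.12 to 0.20 (KDM3A) and -0.0066 to 0.20 (INSIG2). With the mean of probes the turned values were HIF1A -0.0037, EGLN2 0.13, VHL -0.0019 and PGAM1 -0.040. With median scaling they were SLC2A1 -0.013, TPI1 -0.019 and LDHB -0.0041.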
